A study of Mus musculus with 8 samples.

Results

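The heat shock response genes described here are Hsf1, Hspa1a, Hspa1b, Hsph1, Hspb1, Dnajb1, Hsp90aa1, Hspa8, Hsp90ab1 and Hspd1. They were chosen by name, as 10 of the 43346 gene identifiers in the read count tables, and each of the 10 was found in all tables. By textbook role, 6 of them are stress-inducible chaperones (Hspa1a, Hspa1b, Hsph1, Hspb1, Dnajb1 and Hsp90aa1), 3 are chaperones that cells make constitutively (Hspa8, Hsp90ab1 and Hspd1), and Hsf1 encodes the transcription factor of the response. RNA-Seq was performed on mouse notochord-derived cells at 2 stages, with 4 litters per stage. The embryonic day 12.5 (E12.5) samples were notochords, and the samples of postnatal day 0 (P0, the day of birth) were cells of the nucleus pulposus, the core of the intervertebral disc that forms from the notochord. Both stages carried Shh-cre;ROSA:YFP, in which a Cre recombinase driven from the Shh locus switches on a yellow fluorescent protein in Shh-expressing cells and their descendants. No animal was heat-treated or given any other agent, and embryos or pups of a litter were pooled, so that each sample is a litter.

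Heat shock proteins are molecular chaperones that hold, fold or dissolve other proteins. When misfolded protein accumulates, the factor HSF1 is released from its chaperones, forms trimers and binds heat shock elements, which are inverted repeats of the unit GAA, in the promoters of its target genes. Hspa1a and Hspa1b are the classical strongly induced targets, whereas Hspa8 and Hsp90ab1 keep protein folding running in unstressed cells. Taking tissue apart is known to induce heat shock genes in many cell types. The stages were prepared differently here. E12.5 notochords were dissected whole and put directly into lysis reagent, while P0 cells were freed from the disc by agitation, filtered and sorted for yellow fluorescence. Developmental stage and isolation method cannot be told apart in any comparison below.

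The comparison of P0 with E12.5 asked which chaperones differed in mRNA abundance between the notochord and the newly formed nucleus pulposus. Of the 9 heat shock response genes abundant enough to be tested, 2 were higher at P0 at an adjusted p under 0.05, Hspa1b by 8.91-fold and Hspa8 by 1.69-fold, and 0 were lower by edgeR. By the same rule 27.9% of all 15467 genes tested were called, 16.0% higher and 12.0% lower, so that 2 of 9 is close to the share over all genes. The count of genes lower at P0 was also 0 at an unadjusted p under 0.05, by DESeq2 and by limma. The median log2 fold change of the 9 genes was 0.40, beside 0.04 over all genes tested. Hspa1a, which is nearly identical to Hspa1b, did not pass the filter on low counts, and Hspa1b passed it through its P0 litters.

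Levels are given as CPM, the count of a gene scaled to a library of 1000000 reads on genes, with libraries adjusted to each other by the trimmed mean of M-values. Each library held between 4442775 and 8904050 reads on genes, and 3 reads correspond to between 0.337 and 0.675 CPM. Litters NDP10.2 and NPD9.2 at E12.5 stood apart from the other 6 libraries, with 22.6% and 24.6% of reads on genes against 30.9% to 34.8%. They also had the most erythroid mRNA, 24865 and 49398 CPM summed over 9 genes against 10144 and 10501 CPM in the other E12.5 litters. The E12.5 litter NPD4 carried neural mRNA at 1583 CPM over 6 genes, compared with 82.2 to 134 CPM in the other E12.5 litters. The P0 litters carried 300 to 822 CPM. In NPD4 most of it came from the neuron genes Tubb3, Stmn2 and Elavl3 (576, 689 and 289 CPM). The neural progenitor genes Sox2, Pax6 and Olig2 measured 27.0, 1.57 and 0.121 CPM there. At P0, leukocyte mRNA summed to between 1082 and 9825 CPM over 14 genes, against 82.7 to 218 CPM at E12.5. Of 9 notochord and nucleus pulposus genes 8 were tested, with 2 called higher and 2 lower at P0. T measured 242 to 942 CPM at E12.5 and 574 to 2323 CPM at P0, whereas Shh went from 420 to 1348 CPM down to 0.157 to 11.8 CPM and Foxa1 from 70.0 to 239 CPM down to 18.6 to 52.3 CPM. Noto, a defining gene of the early notochord, was at or below 0.433 CPM in all 8 libraries. In such bulk samples, fewer cells of a type and less RNA per cell cannot be told apart.

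**Figure D1:**
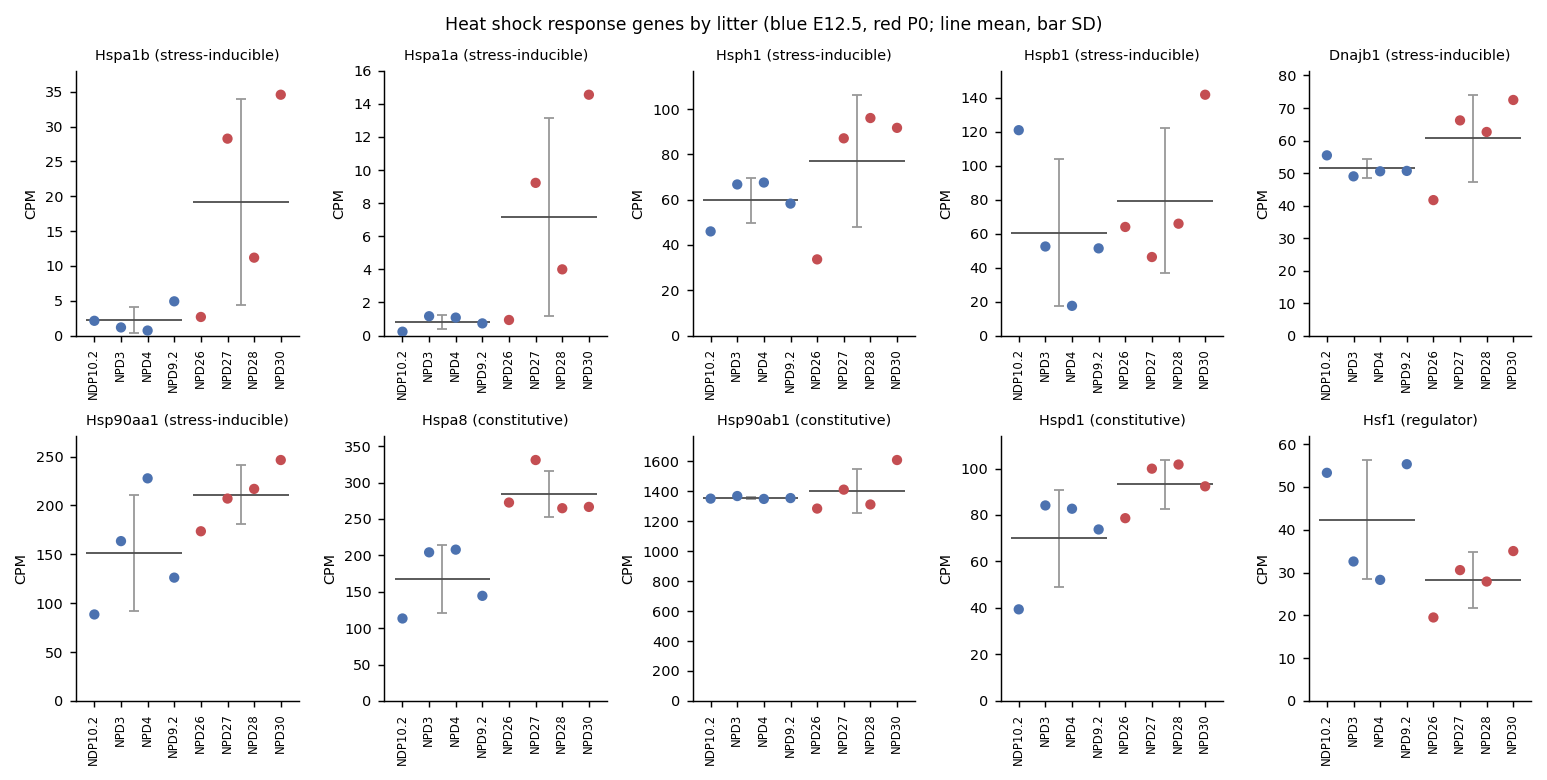
mRNA abundance of the 10 heat shock response genes in each litter, in CPM (linear axes from 0), with E12.5 in blue and P0 in red. Horizontal lines are stage means and bars are SD over 4 litters. The stages overlap in every panel except that of Hspa8, and P0 litter NPD26 lies near the E12.5 litters for Hspa1a and Hspa1b.

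Hsf1 encodes the master regulator of the response, which is controlled mainly at the protein level. Its mRNA measured 53.3, 32.6, 28.3 and 55.3 CPM in E12.5 litters NDP10.2, NPD3, NPD4 and NPD9.2, and 19.5, 30.6, 27.9 and 35.0 CPM in P0 litters NPD26, NPD27, NPD28 and NPD30. The higher E12.5 values belonged to NDP10.2 and NPD9.2, and the remaining E12.5 litters lay within the P0 range. Hsf1 did not pass the test (log2 fold change -0.58 ± 0.29, SE, adjusted p = 0.164).

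Hspa1b encodes inducible HSP70, the chaperone that rises most steeply under proteotoxic stress. Its E12.5 levels were 2.12, 1.17, 0.725 and 4.92 CPM, in the order of litters given for Hsf1. At P0 they were 2.67 CPM in NPD26, 28.3 CPM in NPD27, 11.2 CPM in NPD28 and 34.6 CPM in NPD30. These values rested on 9, 6, 6 and 20 reads at E12.5 and on 17, 196, 95 and 228 reads at P0. Thus 3 of 4 P0 litters exceeded all E12.5 litters, while NPD26 lay below the E12.5 litter NPD9.2. Hspa1b was higher at P0 by 3.15 ± 0.82 (SE) on the log2 scale (adjusted p = 0.0163, edgeR). Limma put the difference at 3.05 (adjusted p = 0.107), which does not pass, and without litter NPD3 the adjusted p was 0.0556.

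Hspa1a encodes the same inducible HSP70 from the neighboring locus. It measured 0.236, 1.17, 1.09 and 0.738 CPM at E12.5 and 0.944, 9.23, 4.00 and 14.6 CPM at P0, again with NPD26 within the E12.5 range. These levels rested on 1, 6, 9 and 3 reads at E12.5 and on 6, 64, 34 and 96 reads at P0. With no filter on low counts Hspa1a was higher at P0 by 3.09 ± 0.70 (SE) on the log2 scale (adjusted p = 0.000329, edgeR).

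Hspa1a and Hspa1b differ at few positions, and 56.5% of the stretches of 100 bases (the read length) in the Hspa1a transcript, and 49.9% of those in Hspa1b, also occur in another gene's transcript. Reads from such stretches cannot be placed uniquely, so the split between the pair is uncertain. Summed over both genes the levels were 2.36, 2.34, 1.81 and 5.66 CPM at E12.5 and 3.62, 37.5, 15.2 and 49.1 CPM at P0. The sum was higher at P0 by 3.14 ± 0.74 (SE) on the log2 scale, with an adjusted p of 0.0101 (edgeR). Both copies are single-exon genes on the minus strand of chromosome 17, at 34969190 to 34972156 for Hspa1a and 34956436 to 34959238 for Hspa1b (GRCm38, Gencode M21).

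The 250 bases before the transcription start of both genes are shown because the pair moved together and because HSF1 acts through this region. Sequences are from RefSeq (GRCm38.p6), read 5′ to 3′ on the gene's strand, with capitals marking a pair of facing heat shock units, GAANNTTC. The windows are chr17:34972157-34972406 and chr17:34959239-34959488, both on the minus strand.
Hspa1a: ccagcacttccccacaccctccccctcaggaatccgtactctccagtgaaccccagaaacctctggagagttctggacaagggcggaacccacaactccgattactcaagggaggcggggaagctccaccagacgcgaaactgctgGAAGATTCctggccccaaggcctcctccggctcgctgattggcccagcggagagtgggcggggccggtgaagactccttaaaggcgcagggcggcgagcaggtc
Hspa1b: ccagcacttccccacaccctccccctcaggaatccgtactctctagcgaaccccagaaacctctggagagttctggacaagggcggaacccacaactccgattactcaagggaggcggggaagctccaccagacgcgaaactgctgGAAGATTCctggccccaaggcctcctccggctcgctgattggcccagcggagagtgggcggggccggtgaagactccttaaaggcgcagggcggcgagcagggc
The windows were identical at 247 of 250 bases, and each held 1 GAANNTTC match, whose first base lay 104 bases before the start.

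Hsph1 encodes HSP110, which exchanges the nucleotide of HSP70 and helps it to dissolve aggregates. Its mRNA measured 46.0, 66.7, 67.6 and 58.3 CPM at E12.5. At P0 it was 33.7 CPM in NPD26 and 87.1, 96.1 and 91.7 CPM in NPD27, NPD28 and NPD30. NPD26 was thus below every E12.5 litter and the other 3 P0 litters above every E12.5 litter. The log2 fold change of 0.37 ± 0.32 (SE) did not pass the test (adjusted p = 0.424), and without NPD26 it was 0.63 (adjusted p = 0.0772).

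Dnajb1 encodes HSP40, the J-domain partner that hands clients to HSP70 and starts its ATPase cycle. It varied little at E12.5, with 55.4, 49.0, 50.5 and 50.7 CPM. At P0 it measured 41.7 CPM in NPD26 and 66.2, 62.6 and 72.5 CPM in the other litters. The pattern was that of Hsph1, with NPD26 below all E12.5 litters and the other P0 litters above them. The difference did not pass the test (log2 fold change 0.24 ± 0.22, SE, adjusted p = 0.459).

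Hspb1 encodes HSP27, a small heat shock protein that binds unfolded clients without ATP. It was the most scattered of the abundant genes, with 121, 52.5, 17.5 and 51.4 CPM at E12.5 and 64.0, 46.3, 65.9 and 142 CPM at P0. The E12.5 low was in NPD4, which also held the least mRNA of the notochord and nucleus pulposus list (1687 CPM over 9 genes), and the P0 high was in NPD30, which held the most (6935 CPM). The highest E12.5 value was in NDP10.2, with 4007 CPM of the list. NPD3 held nearly as much of the list (3911 CPM), but its Hspb1 was close to that of NPD9.2, which held 1867 CPM. The other P0 litters, NPD26, NPD27 and NPD28, held 3339, 1969 and 3796 CPM. Whether the purity of the samples had a part in this scatter was not tested. Hspb1 did not pass the test (log2 fold change 0.40 ± 0.53, SE, adjusted p = 0.622), and the difference turned to -0.07 without NPD30.

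Hsp90aa1 and Hsp90ab1 encode the inducible and the constitutive cytosolic HSP90, which matures kinases and steroid receptors. Hsp90aa1 measured 88.5, 164, 228 and 126 CPM at E12.5 and 174, 207, 217 and 247 CPM at P0. NDP10.2, NPD3 and NPD9.2 lay below all P0 litters, whereas NPD4 lay above 3 of them. On the log2 scale the stages differed by 0.48 ± 0.29 (SE, adjusted p = 0.255). Hsp90ab1 was nearly constant at E12.5, at 1351, 1368, 1349 and 1355 CPM, and measured 1285, 1411, 1312 and 1609 CPM at P0. Its log2 fold change of 0.05 ± 0.25 (SE, adjusted p = 0.905) was the smallest of the 9 genes, and its sign turned with upper quartile scaling (-0.09) and without NPD30 (-0.06). The 4 E12.5 values of Hsp90ab1 had an SD of 8.68 CPM around a mean of 1356 CPM, against an SD of 147 CPM around 1404 CPM at P0.

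Hspa8 encodes HSC70, the constitutive HSP70 that folds new proteins and strips clathrin from vesicles. It measured 113, 204, 208 and 144 CPM at E12.5 and 273, 331, 265 and 267 CPM at P0. Among the 10 genes it was the only one in which every P0 litter exceeded every E12.5 litter, an arrangement found in 15.5% of all genes tested. Hspa8 was higher at P0 by 0.76 ± 0.25 (SE) on the log2 scale (adjusted p = 0.0444, edgeR), just under the threshold. The lowest values were in NDP10.2 and NPD9.2, and without both the difference was 0.42 (adjusted p = 0.313). Leaving out any single litter other than NPD4 also took the adjusted p above 0.05, up to 0.139. The call was lost as well with upper quartile scaling (adjusted p = 0.101), with no filter on low counts (0.0614) and without mitochondrial and hemoglobin genes (0.0603).

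Hspd1 encodes HSP60, the chaperonin of the mitochondrial matrix. Its levels were 39.4, 84.1, 82.7 and 73.8 CPM at E12.5 and 78.6, 99.9, 102 and 92.3 CPM at P0. NDP10.2 was lower than all other litters, and NPD26 was lowest at P0, within the E12.5 range. Hspd1 did not pass the test (log2 fold change 0.41 ± 0.26, SE, adjusted p = 0.273). Hspe1, which encodes its lid HSP10 and shares a bidirectional start region with Hspd1 on the opposite strand, measured 44.3 to 57.0 CPM at E12.5 and 29.9 to 66.0 CPM at P0 (log2 fold change -0.32 ± 0.27, adjusted p = 0.416). The 2 genes overlap and strand use in the counting is not stated in the sources used here, so reads of the shared region cannot be assigned with certainty.

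Compared per kilobase of the summed exons of all transcripts of a gene, which allows levels to be set against each other between genes, Hsp90ab1 stood above the rest at both stages, with 452 ± 2.89 CPM per kb at E12.5 and 468 ± 49.0 at P0 (SD, n = 4). Hspb1 followed with 58.8 ± 42.1 and 77.1 ± 41.2 CPM per kb, Hspa8 with 38.9 ± 10.8 and 66.0 ± 7.37, and Hsp90aa1 with 38.5 ± 15.1 and 53.7 ± 7.65. The litters of these 3 genes overlapped from neighbor to neighbor at both stages, so their order is not resolved. Hspd1 came next at 26.5 ± 7.91 and 35.3 ± 3.97 CPM per kb, then Dnajb1 at 16.0 ± 0.873 and 19.0 ± 4.17, and Hsph1 at 8.21 ± 1.38 and 10.6 ± 4.02. Hspd1 overlapped with both of its neighbors in this order at E12.5 and with neither at P0, and Dnajb1 was separate from Hsph1 at E12.5 but not at P0. At E12.5, Hsf1 (5.97 ± 1.96) lay above Hspa1b (0.797 ± 0.671) and Hspa1a (0.272 ± 0.143) with no overlap between Hsf1 and Hspa1b. At P0, Hspa1b (6.84 ± 5.27 CPM per kb) had a higher mean than Hsf1 (3.98 ± 0.920) and Hspa1a (2.42 ± 2.02), but the litters of all 3 overlapped from neighbor to neighbor. This order depends on the length used. With the length of 1 transcript per gene, an alternative chosen after seeing the data, Hsf1 measured 13.5 ± 4.44 CPM per kb at E12.5 and 9.02 ± 2.08 at P0 (SD, n = 4). Its mean was then above those of Hsph1 at E12.5 (12.5 ± 2.10) and Hspa1b at P0 (6.84 ± 5.27), and that of Hspa8 at P0 (89.8, between 83.8 and 105) was above that of Hspb1 (85.5, between 49.8 and 153), with overlapping litters in each pair. Reads of Hspa1a, Hspa1b, Hspb1, Hsp90aa1, Hspa8 and Hspd1 may be undercounted on this scale, as between 26.9% and 56.5% of their stretches of 100 bases occur in other transcripts, while none of those of Hsf1, Hsph1, Dnajb1 and Hsp90ab1 do.

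The inducible gene was set against its constitutive counterpart within each litter, which removes library size from the comparison. Hspa1a and Hspa1b together gave 2.08, 1.15, 0.873 and 3.92 reads per 100 Hspa8 reads at E12.5. At P0 they gave 1.33 in NPD26, 11.3 in NPD27, 5.74 in NPD28 and 18.4 in NPD30. In 3 of 4 P0 litters inducible HSP70 therefore took a larger part relative to HSC70 than in any E12.5 litter. Hsp90aa1 gave 6.55, 12.0, 16.9 and 9.31 reads per 100 Hsp90ab1 reads at E12.5 and 13.5, 14.7, 16.5 and 15.3 at P0, so that the P0 litters lay within the E12.5 range. Hsph1 gave 32.5 to 40.6 reads per 100 Hspa8 reads at E12.5 and 12.3, 26.3, 36.3 and 34.4 at P0, with overlap. The 6 inducible genes accounted for 17.0% ± 1.06 of the summed CPM of the 9 chaperones at E12.5 and 20.1% ± 3.07 at P0 (SD, n = 4). The share was 16.2% in NPD26, within the E12.5 range of 15.7% to 18.2%, and 19.4%, 21.4% and 23.4% in NPD27, NPD28 and NPD30, above it. These ratios and shares are given as descriptions, without a test.

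**Figure D2:**
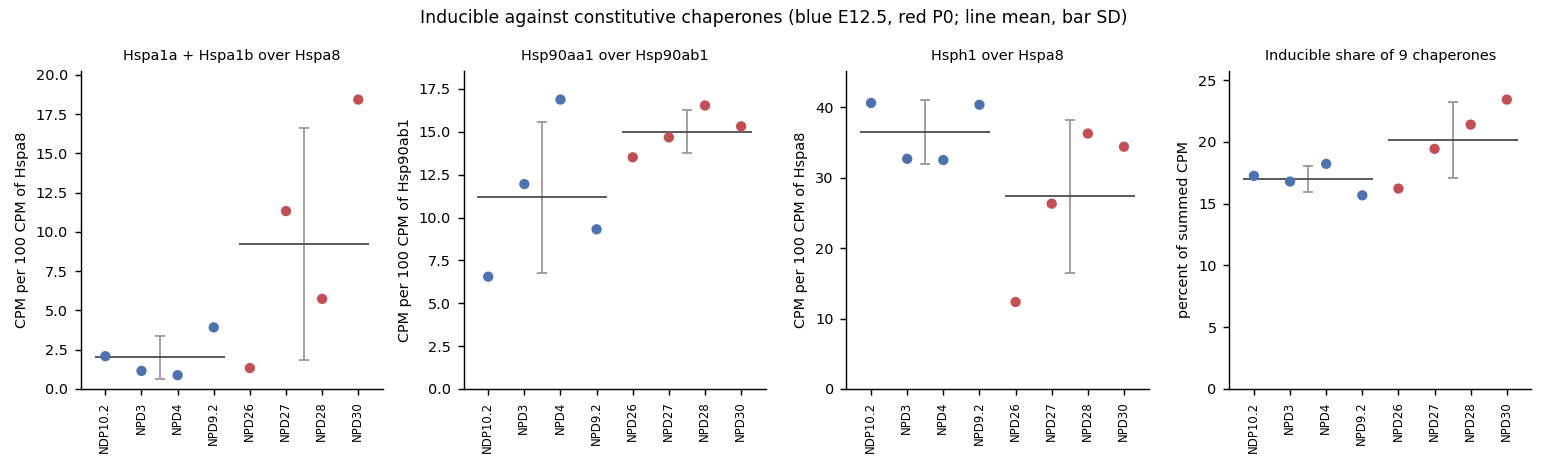
Inducible chaperones relative to constitutive ones in each litter: Hspa1a plus Hspa1b per 100 CPM of Hspa8, Hsp90aa1 per 100 CPM of Hsp90ab1, Hsph1 per 100 CPM of Hspa8, and the percentage of the summed CPM of 9 chaperones that came from the 6 inducible genes. Blue points are E12.5 litters, red points P0 litters, lines are means and bars SD (n = 4). The HSP70 ratio reached 18.4 in NPD30 but was 1.33 in NPD26, and the HSP90 ratio at P0 (13.5 to 16.5) lay within the E12.5 range.

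The P0 litters thus differed among themselves. NPD26 was the lowest P0 litter for 8 of the 10 genes, all except Hspb1 and Hspa8, and for 7 of the 9 tested. It was the lowest P0 litter for 24.6% of all genes tested. Among 75 other chaperone network genes tested it was the lowest for 15, a smaller share than over all genes. Those included Bag3, a stress-induced partner of HSP70, with 25.8 CPM in NPD26 against 48.7, 50.1 and 67.5 CPM in NPD27, NPD28 and NPD30, and Stip1, which links HSP70 to HSP90, with 71.1 CPM against 99.8, 108 and 122 CPM. Most of the 75 were not lowest in NPD26. Hspe1 was highest there (66.0 CPM against 41.1, 32.6 and 29.9 CPM), and Hspb8 had 63.1 CPM against 43.0, 35.6 and 82.6 CPM. At E12.5, NDP10.2 and NPD9.2 were both below the other litters in 4 of the 9 tested genes (Hsph1, Hsp90aa1, Hspa8 and Hspd1) and in 27 of the 75 network genes, against 22.6% of all genes tested. For Tcp1, a subunit of the cytosolic chaperonin, these litters had 145 and 136 CPM and the other E12.5 litters 300 and 304 CPM.

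Marker mRNA of other cells and of acute stimulation is given beside the HSP70 pair. Summed over 12 genes, immediate early mRNA, which is induced within minutes of handling or stimulation, was 332, 494, 217 and 306 CPM at E12.5 and 1466, 1373, 921 and 758 CPM at P0. Among the P0 litters NPD26 had the most immediate early mRNA (Fos at 311 CPM) and the least Hspa1b. Leukocyte mRNA was 6072 CPM in NPD26, 7069 in NPD27, 9825 in NPD28 and 1082 in NPD30, so that the litter with the lowest leukocyte sum had the most Hspa1a and Hspa1b. S100a8 and S100a9 went otherwise, with 198 and 292 CPM in NPD30, 146 and 247 CPM in NPD26, and 163 and 283 CPM in NPD27. The other leukocyte genes of the list were lowest at P0 in NPD30. All 14 leukocyte genes were called higher at P0, and 6 of 12 immediate early genes, beside 16.0% of all genes tested. Leukocyte genes such as Cd52 (0 to 2.21 CPM at E12.5) and Cd74 (0.121 to 1.97 CPM) passed the filter on low counts through their P0 litters. None of the leukocyte genes was at 0 in all litters of a stage. Osteoblast mRNA over 6 genes was 215, 329, 55.7 and 161 CPM at E12.5 and 1080, 1189, 1115 and 1865 CPM at P0, with 4 of 5 genes tested called higher. Among these genes, Ibsp was at 0 to 0.390 CPM at E12.5 and passed the filter through its P0 litters. The P0 litters had the same order in osteoblast mRNA as in the sum of Hspa1a and Hspa1b, from NPD26 through NPD28 and NPD27 to NPD30. The osteoblast sums of NPD26, NPD28 and NPD27 lay close together, within 1080 to 1189 CPM. Spp1, the most abundant of the 6 genes, was lowest at P0 in NPD27 (692 CPM). At E12.5 the orders differed, with osteoblast mRNA highest in NPD3 and the HSP70 pair highest in NPD9.2. The part of other cells and of handling in the HSP70 values was not tested.

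**Figure D3:**
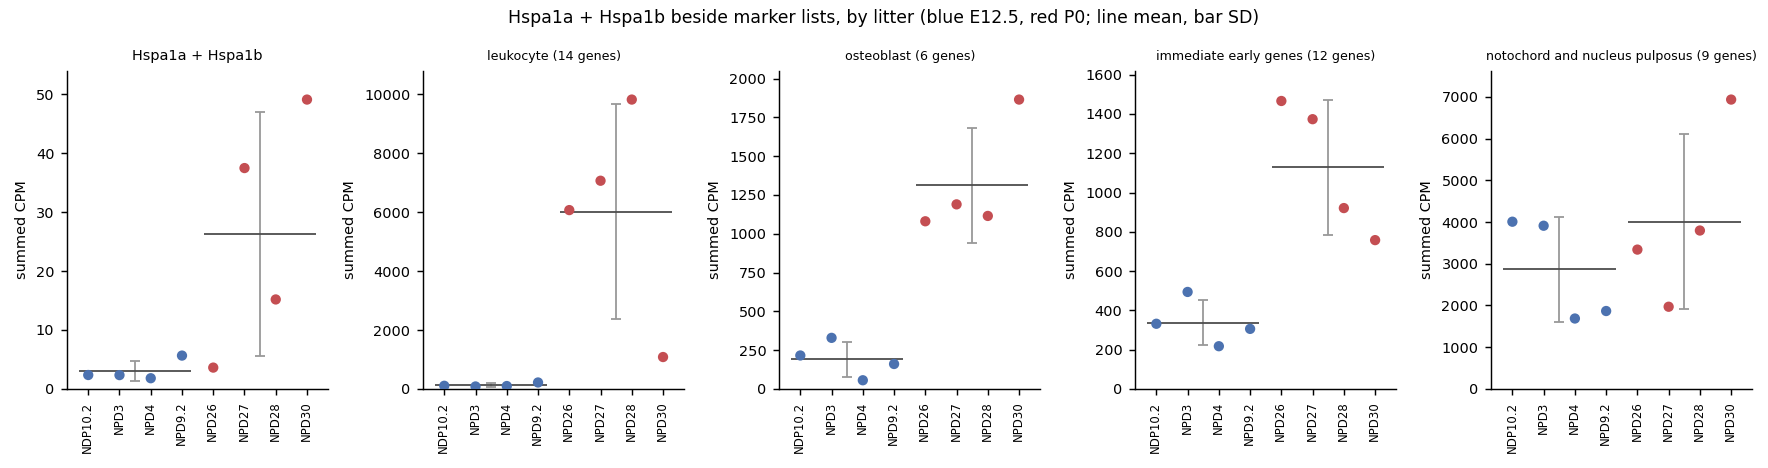
Summed CPM of Hspa1a and Hspa1b in each litter, beside the summed CPM of 14 leukocyte genes, 6 osteoblast genes, 12 immediate early genes and 9 notochord and nucleus pulposus genes, on linear axes from 0. Blue points are E12.5, red points P0, lines means and bars SD (n = 4). NPD30 had the highest Hspa1a and Hspa1b (49.1 CPM) with the lowest leukocyte mRNA of the P0 litters (1082 CPM), and NPD26 the highest immediate early mRNA (1466 CPM) with the lowest Hspa1a and Hspa1b of the P0 litters (3.62 CPM).

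Other genes of the chaperone network were listed by family. Of 83 genes, 82 were found in the tables and 75 were tested, of which 10 were called, 8 higher and 2 lower at P0. With upper quartile scaling 6 were called higher and 5 lower, and with DESeq2 10 higher and 5 lower. The 10 calls by edgeR were 13.3% of the 75 genes, against 27.9% over all genes, and the median log2 fold change was 0.09 against 0.04. In 66 of the 75 the log2 fold change was below 1 in size, beside 10222 of all 15467 genes tested.

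Other cytosolic HSP70 and HSP110 genes held the most calls, with 3 higher and 1 lower of 6 tested. Hspa12a, a distant HSP70 relative with high levels in neurons, was measured at 7.55, 10.5, 85.6 and 7.13 CPM at E12.5 and 113, 111, 129 and 288 CPM at P0. Its log2 fold change was 2.51 ± 0.82 (SE, adjusted p = 0.0441), and without NPD4 it was 4.24 (adjusted p = 0.000157). The call was lost when any of the other 7 litters was left out (adjusted p from 0.0655 to 0.137), with upper quartile scaling (0.0529), with no filter on low counts (0.178) and without mitochondrial and hemoglobin genes (0.0532). Neural mRNA, mostly of neuron genes in NPD4, was 82.2 to 134 CPM in the E12.5 litters other than NPD4 and 1583 CPM in NPD4. At P0 it was 822, 494, 300 and 572 CPM in NPD26, NPD27, NPD28 and NPD30, which is not the order of Hspa12a. NPD4 had more neural mRNA than any P0 litter and less Hspa12a. The part of neural mRNA in the Hspa12a values was not tested. Hspa2, known for its role in male germ cells, rose from between 2.46 and 7.55 CPM to between 9.81 and 23.2 CPM (log2 fold change 1.50 ± 0.42, adjusted p = 0.0210). Hspa4l, an HSP110 relative of Hsph1, rose from between 17.5 and 43.6 CPM to between 50.6 and 104 CPM (1.48 ± 0.34, adjusted p = 0.00816). Hspa12b, an endothelial HSP70 relative, fell from between 11.0 and 30.0 CPM to between 3.46 and 7.71 CPM (-1.78 ± 0.41, adjusted p = 0.00803). Endothelial marker mRNA was 69.1 to 141 CPM at E12.5 and 22.3 to 107 CPM at P0 over 5 genes, and its part in the Hspa12b value was not tested.

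Among 6 other small heat shock proteins tested, 2 rose and 0 fell, beside 16.0% called higher and 12.0% called lower over all genes tested. Hspb8, which acts with Bag3 in clearing damaged protein in muscle and other cells, was 25.2, 15.0, 10.3 and 9.59 CPM at E12.5 and 63.1, 43.0, 35.6 and 82.6 CPM at P0 (log2 fold change 1.90 ± 0.38, adjusted p = 0.00392). Hspb6, a muscle-enriched HSP20, was 3.30 to 5.16 CPM at E12.5 and 11.8 to 19.7 CPM at P0 (1.79 ± 0.32, adjusted p = 0.00238). In both, every P0 litter lay above every E12.5 litter, as in 15.5% of all genes tested, and both remained called in all alternative fits. By edgeR at an unadjusted p under 0.05, and by DESeq2 and limma, the number that fell was 0 as well.

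Of 14 other J-domain proteins, 1 was called. Dnajb14, a membrane-anchored J protein of the endoplasmic reticulum, rose from between 38.9 and 53.3 CPM to between 59.6 and 137 CPM (log2 fold change 1.07 ± 0.27, adjusted p = 0.0131). Of 22 nucleotide exchange factors and co-chaperones, 2 were called higher. Ahsa1, which speeds the ATPase of HSP90, rose from between 20.5 and 36.9 CPM to between 50.1 and 72.4 CPM (0.88 ± 0.25, adjusted p = 0.0212). St13, which holds HSP70 in its client-bound state, rose from between 93.4 and 113 CPM to between 155 and 170 CPM (0.64 ± 0.19, adjusted p = 0.0270). Bag3 did not pass the test (log2 fold change 0.96 ± 0.39, adjusted p = 0.0914). It passed without NPD26 (1.18, adjusted p = 0.0493), without NPD9.2 (1.29, adjusted p = 0.0357), without NDP10.2 and NPD9.2 (1.57, adjusted p = 0.0481) and with no filter on low counts (0.98, adjusted p = 0.0225).

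Of 10 mitochondrial chaperones and proteases tested, 1 was called. Clpp, the matrix protease subunit, fell from between 25.0 and 42.4 CPM to between 13.4 and 23.1 CPM (log2 fold change -0.79 ± 0.26, adjusted p = 0.0449). Of the 14 genes of the cytosolic chaperonin and prefoldin, which fold actin and tubulin, 0 were called by edgeR, DESeq2 or limma, and 1 (Pfdn1) had an unadjusted p under 0.05. The median log2 fold change of the 14 was 0.00. The list of other heat shock factors and their binding proteins had 3 genes tested, the factor Hsf2 and the binding proteins Hsf2bp and Hsbp1. Of these 0 were called by edgeR, while Hsf2 and Hsf2bp had an unadjusted p under 0.05. DESeq2 called 1 higher (Hsf2bp) and 1 lower (Hsf2), and limma 1 higher (Hsf2bp). Hsf2bp was near the level of 3 reads, with 0 to 1.89 CPM at E12.5 and 2.00 to 6.06 CPM at P0. It passed the filter on low counts through its P0 litters. Hsf2, a developmental relative of Hsf1, was 17.7 to 20.3 CPM at E12.5 and 9.08 to 14.4 CPM at P0 (log2 fold change -0.75 ± 0.26, adjusted p = 0.0548). Its P0 litters all lay below its E12.5 litters, as in 14.4% of all genes tested. Hsf2 passed with DESeq2 (adjusted p = 0.0180), with upper quartile (0.0228) or DESeq2 size factor scaling (0.0458), without mitochondrial and hemoglobin genes (0.0456) and without NPD28 (0.0439). With a single litter left out in turn, Hspa4l, Hspa12b, Dnajb14, Hspb6 and Hspb8 were called in all 8 fits, Hspa2 in 6, Ahsa1 in 5, St13 in 3, and Hspa12a and Clpp in 1.

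**Figure D4:**
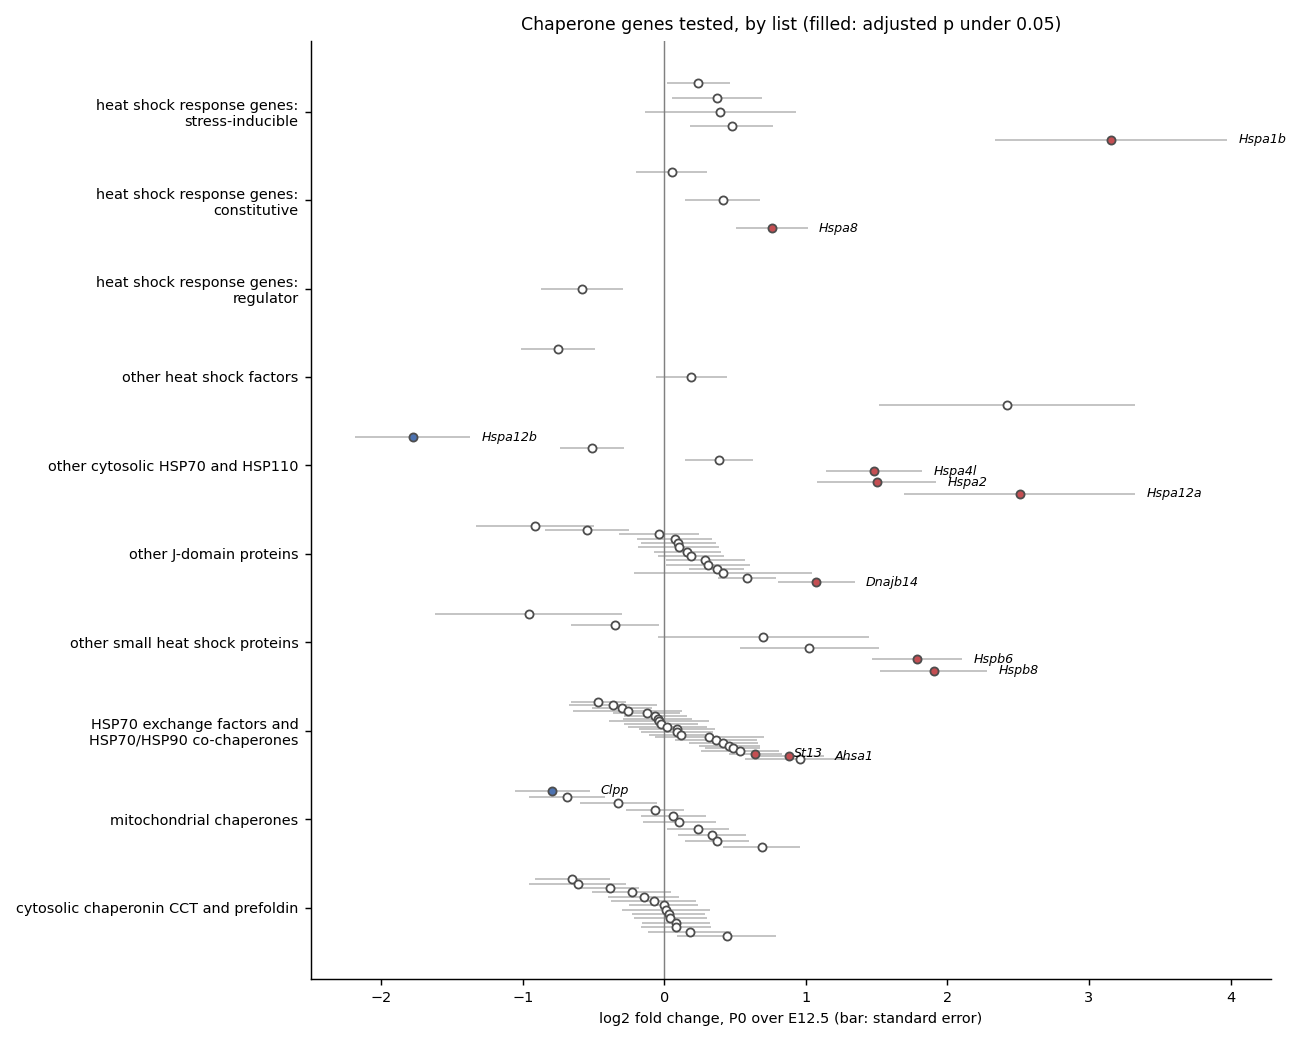
Log2 fold change of P0 over E12.5 for the 9 tested heat shock response genes and 75 other chaperone network genes, grouped by family. Bars are standard errors, filled points had an adjusted p under 0.05 (red higher at P0, blue lower) and carry the gene name. Hspa1b lies farthest to the right at 3.15, and the 14 chaperonin and prefoldin genes lie between -0.65 and 0.44.

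The genes nearest to Hspa1b in pattern over the 8 litters were sought by the root mean square difference of centered log2 CPM, among 12687 genes with a mean log2 CPM of at least 2. They were Col1a2 (difference 0.684), Col1a1 (0.707), Gfi1b (0.763), Nxpe2 (0.778) and Lox (0.853 on the log2 scale). Col1a2, a chain of type I collagen, measured 744, 571, 419 and 959 CPM at E12.5 and 1910, 4099, 3422 and 5914 CPM at P0. As with Hspa1b, NPD30 was highest and NPD26 lowest of the P0 litters, and NPD9.2 highest at E12.5. At E12.5 the pattern of Hspa1b rests on 6 to 20 reads per litter.

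RefSeq promoter windows, from 250 bases before to 50 after the start, were available for Hspa1a, Hspa1b, Hsph1, Hspb1, Dnajb1 and Hspd1. Facing pairs of units, GAANNTTC and TTCNNGAA, were searched on both strands (each reads the same on either strand), as was the element of 3 alternating units, in which both pairs overlap. GAANNTTC occurred in 7.86% of 32851 mouse promoter windows of this length, TTCNNGAA in 8.52% and the 3-unit element in 0.603%. Hspb1 is shown because its window held 2 GAANNTTC matches, at 117 and 97 bases before the start, in chr5:135887669-135887918 on the plus strand.
Hspb1: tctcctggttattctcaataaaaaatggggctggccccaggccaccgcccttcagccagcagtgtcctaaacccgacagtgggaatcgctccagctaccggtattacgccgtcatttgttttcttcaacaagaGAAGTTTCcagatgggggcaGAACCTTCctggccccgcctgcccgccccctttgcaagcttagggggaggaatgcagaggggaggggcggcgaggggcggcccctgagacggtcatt
Hsph1 and Hspd1 held the 3-unit element and are shown by the 30 bases around it, at chr5:149636287-149636316 and chr1:55088053-55088082, both on the minus strand, with the element in capitals.
Hsph1: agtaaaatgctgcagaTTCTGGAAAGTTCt
Hspd1: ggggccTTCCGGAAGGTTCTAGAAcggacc
In Hsph1 the element began at position 37 after the start, inside an exon. In Hspd1 a run of 18 bases held 2 overlapping 3-unit elements, at 144 and 139 bases before the start of a second window, which is an exon and UTR of the longer transcript in Gencode M21. Neither Dnajb1 window held a match, which says only that these letters are not in the window. The windows of Hspa1a and Hspa1b held 1 pair of units each and no 3-unit element. Only exact GAA and TTC units were counted, so units with a changed base were not found. These matches are descriptions of sequence, and binding at them was not examined.

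**Figure D5:**
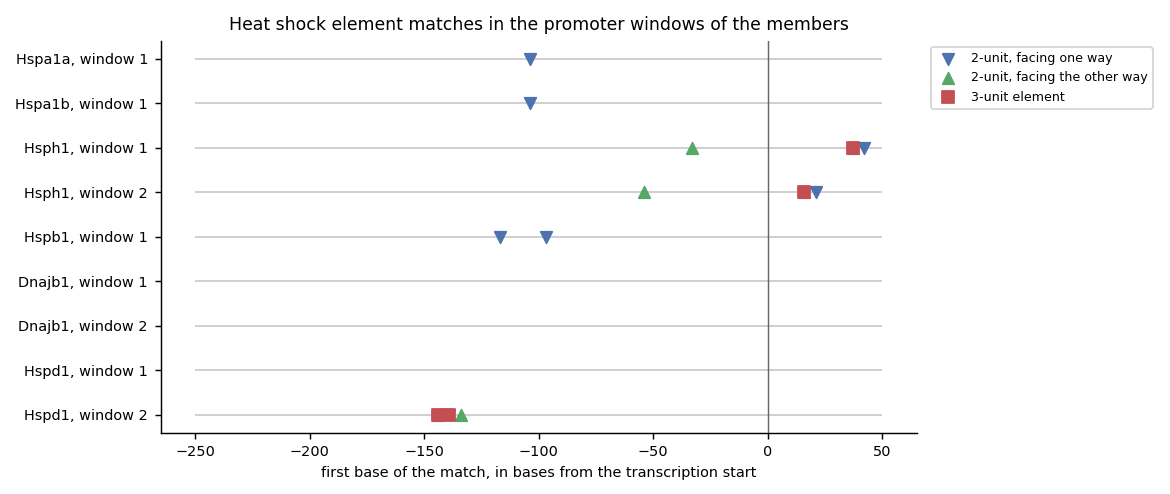
Position of each heat shock element match in the promoter windows of Hspa1a, Hspa1b, Hsph1, Hspb1, Dnajb1 and Hspd1, as the first base of the match in bases from the transcription start (vertical line at 0). Triangles are facing pairs of units (downward GAANNTTC, upward TTCNNGAA) and squares 3-unit elements. Hspa1a and Hspa1b each have a match at -104, and Dnajb1 has none.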

How the data were processed

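RNA from 4 E12.5 and 4 P0 litters was made into TotalScript libraries. Per the submitters' processing notes and the study's methods, the authors aligned single-end reads of 100 bases with STAR 2.4.0j (the notes also list CASAVA 1.8.2 and 2 genome builds, mm9 and GRCm38.p3) and counted reads per Gencode gene with htseq-count. The deposited values are these raw counts, and rows for unassigned reads were left out, which kept 22.6% to 34.8% of the tally. Genes were filtered with filterByExpr (minimum count 10) and fitted across all genes with edgeR 4.0.16 (R 4.3.3), using trimmed mean of M-values scaling, the robust quasi-likelihood test and Benjamini-Hochberg adjustment, with a threshold of 0.05. DESeq2 1.42.0, limma 3.58.1 and other settings were alternatives, and the code was tested on simulated data. Replicates are pooled litters, so p-values measure the spread between litters. Named network genes were at most 3 called higher and 3 lower per list with the largest change, the 5 nearest genes were ranked, and genes named beyond that were chosen after their values were seen. The genes and lists were chosen with earlier results of these data known.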

Additional observations from a re-analysis of the deposited data

Results flagged for a closer look

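Among 60 sets of 4 litters examined for the genes and ratios above, 6 had a litter whose gap to the nearest of the others, relative to the whole range, was above Dixon's 95% critical value, where chance alone gives about 1 in 20. Hsph1 was low in P0 litter NPD26 (33.7 CPM). Hspa8 was high in P0 litter NPD27 (331 CPM). Hspa12a was high in E12.5 litter NPD4 (85.6 CPM) and in P0 litter NPD30 (288 CPM), and Hspa4l was also high in NPD4 (43.6 CPM). The sum of Hspa1a and Hspa1b was high in E12.5 litter NPD9.2 (5.66 CPM).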

How the results depend on the processing

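The 2 heat shock response genes called higher became 1 with limma (Hspa8), upper quartile scaling (Hspa1b), at least 10 counts in every sample (Hspa8, as Hspa1b was then not tested), without mitochondrial and hemoglobin genes (Hspa1b), and, in an alternative chosen after seeing the data, without NDP10.2 and NPD9.2 (Hspa1b). With single litters left out the number ranged from 1 to 3 and Hspa1b stayed called in 7 of 8 fits, with log2 fold changes of 2.66 to 3.85, while Hspa8 stayed called in 1 of 8. Over all genes 4321 calls became 2581 without NDP10.2 and NPD9.2, and 3612 to 4529 with single litters left out. With no filter on low counts the number stayed 2, but Hspa1a took the place of Hspa8. Without NDP10.2 and NPD9.2 the number of network genes called fell from 10 to 3, of which 2 were among the 10 (Hspb6 and Hspb8) and the other was Bag3. With single litters left out it ranged from 6 (without NPD3 or NPD27) to 10, of which 6 to 8 were among the 10. Signs turned for Hsp90ab1 with upper quartile scaling (-0.091), and with single litters left out Hsp90ab1 ranged from -0.057 (without NPD30) to 0.10 and Hspb1 from -0.074 (without NPD30) to 0.94. Upper quartile scaling gave 2105 genes higher and 2322 lower, against 2468 and 1853, and moved the median of all genes by -0.15 and the absence of a filter by 0.41. The cause of these changes was not tested. Of 169 alternative values of the 9 tested genes, 153 kept direction and side of the threshold, as did 151 of 190 for the 10 named network genes, with none of the latter reversed. No paired analysis was possible because the stages share no litter numbers. At E12.5, Hspa1a and Hspa1b lie near the level of 3 reads, so counting error limits their fold changes.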
